A study of Mus musculus with 12 samples.

Results

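Kidney cortex of mice with diet- and toxin-induced fatty liver disease was compared between 24 and 12 weeks of treatment. The comparison holds 6 of the 12 RNA sequencing libraries of the series: 3 libraries of the NASH group at 24 weeks and 3 of the NASH group at 12 weeks, chosen by their labels. NASH, non-alcoholic steatohepatitis, is a fatty, inflamed state of the liver. All mice were C57BL/6J with no introduced allele. Both NASH groups ate a Western diet and received carbon tetrachloride (CCl4), a liver toxin, for 12 weeks (6 mice) or 24 weeks (10 mice). The 6 remaining libraries are controls on normal diet and corn oil, also for 12 weeks (6 mice) or 24 weeks (8 mice), and are used only to set the change with time under treatment beside that without it. Each group held as many males as females, and RNA integrity was above 7.5. The labels give neither the hour of dissection nor the sex or the animals behind a library, so p-values measure the spread between these libraries, which may be technical. Time in this design is at once duration of diet and CCl4 and age of the mice, and these cannot be told apart.

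Each deposited value is the log2 of a gene's scaled read count in 1 library, for 11614 genes. Levels are compared within a gene only, because they are not divided by gene length. The depth estimated from the steps of the values was 12400000, 7170000 and 8230000 reads at 12 weeks and 12300000, 11300000 and 8280000 reads at 24 weeks in NASH replicates 1, 2 and 3. In the controls it ranged from 10100000 to 14100000 reads. Proximal tubule genes were abundant in every NASH library: Slc34a1, the sodium-phosphate cotransporter of that segment, stood at 16.43, 16.93 and 16.41 at 12 weeks and 16.33, 16.55 and 16.49 at 24 weeks.

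The 3 replicate numbers were not alike. Xist, transcribed from the inactive X chromosome of females, stood at 10.60, 2.97 and 4.29 in NASH replicates 1, 2 and 3 at 12 weeks and at 11.08, 3.90 and 4.21 at 24 weeks, so replicate 1 was high at both times and replicates 2 and 3 were low. The Y-linked gene Ddx3y was low where Xist was high, with 2.48, 8.95 and 9.33 at 12 weeks and 3.75, 9.09 and 9.13 at 24 weeks. Replicate 1 of both control groups showed the same pattern. High Xist with low Ddx3y is the pattern of female tissue, and the reverse is that of male tissue. Results from replicates 2 and 3 alone therefore describe libraries with the male pattern, though the labels do not give their sex. Over the 6 NASH libraries the first principal component (57.6% of the variance) set replicate 1 of both times apart from replicates 2 and 3. The second (21.9%) parted 12 from 24 weeks in replicates 2 and 3, with scores of -15.8 and -31.6 at 12 weeks and 21.5 and 27.5 at 24 weeks, and left replicate 1 at -0.89 and -0.73. Libraries with the same number deviated together from their group means (correlation over genes 0.187 to 0.742 in 18 pairs). Replicates 2 with 3 also did (0.187 to 0.637), and replicate 1 with 2 or 3 did not (-0.702 to -0.27). NASH 12-week replicate 2 correlated at 0.585 with 24-week replicate 3 and at 0.364 with 24-week replicate 2. The values thus part replicate 1 from the others, and matching 2 with 2 and 3 with 3 rests on the labels. The change with time was fitted without and with the replicate number as a block, and also in replicates 2 and 3 alone.

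The kidney cortex consists mostly of proximal tubules, which burn fatty acids for energy, reabsorb filtered solutes and secrete organic ions. When fatty acids reach the tubule, as in fasting, the nuclear receptor PPARA, bound with RXR to DNA, raises genes of fatty acid oxidation. A clock of activators (Arntl with Clock or Npas2) and repressors (Per, Cry and Nr1d proteins) gives many kidney genes a daily rhythm, and its output factors Dbp, Tef and Hlf compete with the repressor Nfil3 for D-box elements. Sterol synthesis genes are driven by SREBF2 when cell cholesterol is low. In mice, many tubule genes for transport and drug metabolism also differ between the sexes.

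Between 12 and 24 weeks of NASH treatment, 3 genes rose in all 3 pairs of libraries and passed the test with the replicate block: Nfil3, Slc16a1 and Ndrg1. Each was lower in all NASH libraries at 12 weeks than in any other library of the series, and at 24 weeks lay in or near the range of the controls. Without the block, 0 of 11614 genes passed (adjusted p under 0.05, limma with Benjamini-Hochberg adjustment), and 553 had an unadjusted p under 0.05, 305 of them higher at 24 weeks. With the block 3 genes passed, 0.0258% of those tested, and 1340 had an unadjusted p under 0.05.

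Promoters of Nfil3 and Slc16a1 are shown because each holds 1 of the elements searched, and those of a clock gene and a lipid gene described further on because they hold the element of their own list. Sequences are RefSeq windows on GRCm38.p6, from 250 bases before to 50 after the start, 5′ to 3′ on the gene's strand, with the element in capitals. Nfil3 (chr13:52980990-52981289, minus strand) holds AGGTCA, the core motif of many nuclear receptors, read on the other strand as TGACCT, 12 bases before the start. Slc16a1 (chr3:104638414-104638713, plus strand) holds the E-box CACGTG, which Arntl dimers and other factors of their class bind, 200 bases before the start. Per3 (chr4:151044616-151044915, minus strand), a clock gene with D-box control, holds TTATGTAA 205 and 158 bases before the start. Fabp1 (chr6:71199629-71199928, plus strand), a PPARA target, holds the direct repeat DR1, a pair of AGGNCA motifs spaced by 1 base, on the other strand 67 bases before the start.
Nfil3: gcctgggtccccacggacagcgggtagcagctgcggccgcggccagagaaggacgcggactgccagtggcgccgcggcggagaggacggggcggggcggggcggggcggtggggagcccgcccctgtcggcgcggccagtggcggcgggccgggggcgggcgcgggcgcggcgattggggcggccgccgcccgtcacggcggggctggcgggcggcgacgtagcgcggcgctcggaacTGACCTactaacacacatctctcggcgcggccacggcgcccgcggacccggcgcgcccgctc
Slc16a1: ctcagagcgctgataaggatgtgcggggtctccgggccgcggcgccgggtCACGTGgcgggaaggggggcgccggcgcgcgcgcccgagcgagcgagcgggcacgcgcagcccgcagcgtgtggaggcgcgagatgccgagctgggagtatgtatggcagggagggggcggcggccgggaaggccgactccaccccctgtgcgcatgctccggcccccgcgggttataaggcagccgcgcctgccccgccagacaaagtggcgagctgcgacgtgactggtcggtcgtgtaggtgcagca
Per3: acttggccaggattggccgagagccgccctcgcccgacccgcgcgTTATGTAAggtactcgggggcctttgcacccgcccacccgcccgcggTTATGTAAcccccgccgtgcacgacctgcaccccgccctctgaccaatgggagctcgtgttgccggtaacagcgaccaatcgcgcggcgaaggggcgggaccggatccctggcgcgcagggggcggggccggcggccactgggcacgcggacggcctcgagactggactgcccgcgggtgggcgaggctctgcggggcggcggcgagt
Fabp1: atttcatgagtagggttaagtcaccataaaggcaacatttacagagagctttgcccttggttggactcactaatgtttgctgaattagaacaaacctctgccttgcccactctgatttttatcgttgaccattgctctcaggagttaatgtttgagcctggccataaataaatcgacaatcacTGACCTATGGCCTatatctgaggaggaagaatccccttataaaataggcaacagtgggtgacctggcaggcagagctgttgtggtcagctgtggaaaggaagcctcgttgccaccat
Of 9268 promoters of measured genes, 10.3% held CACGTG and 12.1% AGGTCA on either strand. The D-box, searched as TTANGTAA or TTATGNAA, was in 3% and the spaced pair in 0.281%. CACGTG was in 3 of 15 clock promoters and AGGTCA in 6 of 13 promoters of PPARA targets. An AGGTCA match is also part of some spaced pairs. A match describes letters in the window and is not a measured binding site.

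Nfil3 (chr13:52967209-52981039, minus strand, mm10) encodes the D-box repressor. In the order of replicates 1, 2 and 3 its level was 6.39, 4.29 and 5.35 at 12 weeks and 8.24, 6.94 and 7.76 at 24 weeks. All 24-week libraries lay above all 12-week ones, and within each time replicate 1 was highest and replicate 2 lowest. The difference was 2.30 on the log2 scale, 4.94-fold higher (SE with the block 0.26, limma adjusted p = 0.0308; without the block SE 0.52 and 0.685). Control libraries went from 8.48, 7.93 and 8.20 at 12 weeks to 8.01, 6.85 and 6.93 at 24 weeks. The difference between the NASH and the control change was 3.24 (SE 0.37, limma adjusted p = 0.034 with the block), the 1 gene of 11614 (0.00861%) that passed that test. That call too was lost in 7 of the 12 fits with the block that leave out 1 library: control replicates 2 or 3 of either time, NASH 12-week replicate 3, or NASH 24-week replicates 2 or 3 (differences of 3.02 to 3.37, limma adjusted p 0.06001 to 0.222).

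Slc16a1 (chr3:104638664-104658462, plus strand) encodes MCT1, a proton-linked carrier of lactate, pyruvate and ketone bodies. It stood at 9.13, 8.86 and 8.44 at 12 weeks and at 10.36, 10.37 and 10.55 at 24 weeks, with no overlap and nearly equal 24-week values. The gain was 1.61, 3.06-fold (block SE 0.20, limma adjusted p = 0.0308; 0.0706 without the block). Ndrg1 (chr15:66929318-66969641, minus strand), a gene of stress and differentiation that hypoxia induces, moved from 14.87, 14.69 and 14.40 to 15.82, 16.20 and 16.20. Its gain of 1.42, 2.67-fold (block SE 0.18, limma adjusted p = 0.0308; 0.0706 without the block), again came without overlap. Control levels at 12 and 24 weeks were 10.79, 10.49 and 10.88 and 10.53, 11.07 and 11.15 for Slc16a1, and 16.11, 15.87 and 16.27 and 16.02, 16.26 and 16.34 for Ndrg1. Both belong to the hypoxia response list, where they were the 2 members of 22 that rose in replicates 2 and 3 (2.51% of all genes); its median change was 0.00, against 0.02 for all genes. The calls with the block depend on single libraries: all 3 were lost without NASH replicate 2 or 3 of either time, and without control replicate 3 at 12 weeks or 2 or 3 at 24 weeks (limma adjusted p up to 0.2575). Fitted from the 6 NASH libraries alone with the block, none passed (0.302 each). Slc16a1 and Ndrg1 were also lost with median-of-ratios scaling (0.0702 each) and with the GC and length trend removed (0.0735 and 0.0692), where Nfil3 passed (0.0152 and 0.00863).

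Further genes next in line over all 3 pairs did not pass with or without the block, and are given as values. Keg1, a kidney-enriched gene, stood at 14.97, 15.52 and 15.51 at 12 weeks and 14.28, 13.82 and 14.14 at 24 weeks, a difference of -1.26 without overlap (limma adjusted p = 0.0566 with the block). Nat8f1, of a family of N-acetyltransferase-like proteins, differed by -1.02 (0.0599) and its neighbour Nat8f6, with which it may share reads, by -0.73 (0.0761). Gjb2, a gap junction connexin, went from 11.27, 11.002 and 10.91 to 10.24, 10.28 and 10.16, a difference of -0.84 (0.0761). Also lower were Nmrk1, a nicotinamide riboside kinase, by a log2 difference of -1.08, Ak4, a mitochondrial adenylate kinase, by -0.96, and Coq10b, a coenzyme Q binding protein, by -0.87. On the higher side Ypel2 differed by 1.45, Slc25a30, a mitochondrial carrier, by 1.11, Nectin1, an adhesion molecule, by 0.91 and Clpx, a mitochondrial chaperone, by 0.86. Values at 12 and 24 weeks did not overlap in 472 genes on the higher side (4.06%) and 508 on the lower side (4.37%) of 11614. A change past 1 on the log2 scale in 1 direction in all 3 pairs was seen in 12 genes (0.103%), among them Nfil3, Npas2, Slc16a1 and Ypel2 upward and Dbp, Upp2 and Mfsd2a downward.

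The clock genes differed between the times in opposite directions. Npas2 and Arntl were higher at 24 weeks and Dbp, Per2, Per3 and Nr1d2 lower, each without overlap between the 3 and 3 NASH libraries. Of 20 measured clock genes, Nfil3 passed with the block; in replicates 2 and 3 alone Nfil3, Npas2, Per1 and Rora rose and Dbp fell, 5 of 20 against 4.66% of all genes.

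Npas2, the partner of Arntl that can stand in for Clock, was at 6.29, 5.92 and 5.85 at 12 weeks and 8.03, 7.42 and 7.77 at 24 weeks. All 3 pairs gave nearly the same gain (1.74, 1.498 and 1.91), of 1.72 on average, 3.29-fold (block SE 0.26, limma adjusted p = 0.0761 with the block and 0.00249 in replicates 2 and 3). Arntl, the core activator, read 7.83, 7.54 and 7.55 and then 9.21, 8.18 and 8.21, a difference of 0.89 (0.178 with the block, 0.0507 in replicates 2 and 3). Dbp, the D-box activator that Arntl dimers drive, showed the widest swing, from 9.87, 10.25 and 10.07 to 5.63, 8.65 and 6.73. Its 12-week values lay close together, and its 24-week values were widely spread with replicate 1 lowest. The difference was -3.06, 8.33-fold lower (block SE 0.60, limma adjusted p = 0.111); in replicates 2 and 3 Dbp fell by 2.47 (0.0407), a call lost without any 1 of 5 libraries (NASH 12-week replicates 2 and 3, NASH 24-week replicate 3, control 24-week replicates 2 and 3).

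Of the repressor genes that Arntl dimers drive, Per2, Per3 and Nr1d2 lay on the same side as Dbp. Per3 read 7.82, 8.33 and 8.38 at 12 weeks and 7.15, 7.76 and 6.82 at 24 weeks, a difference of -0.94 (limma adjusted p = 0.124 with the block). Per2 differed by -0.85 (0.187) and Nr1d2, which encodes a REV-ERB repressor, by -0.80 (0.218); Tef, a D-box activator, differed by -0.71 with overlapping groups. Nr1d1, the other REV-ERB gene, differed by -0.03 over 3 pairs and was higher at 24 weeks in replicates 2 and 3. Per1 stood apart, with a gain of 0.74 in replicates 2 and 3 (0.0339) and a value of -0.43 in pair 1; the call was lost without NASH 12-week replicate 2, either NASH 24-week replicate or control 12-week replicate 3. Rora, an activator of Arntl, gained 0.58 (0.0463), lost without any 1 of the 4 NASH libraries.

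Over the same interval most of these genes had a change of the opposite sign in controls. In replicates 2 and 3, Dbp rose by 3.57 in controls (limma adjusted p = 0.00771) while Npas2 fell by 1.34 (0.00771) and Arntl fell by 1.17 (0.00387). The test of the difference of changes passed for Dbp (-6.04, 0.0153), Npas2 (3.05, 0.00778), Arntl (1.81, 0.0114), Nfil3 (3.70, 0.0177), Nr1d2 (-1.48, 0.0177) and Nr1d1 (-1.19, 0.0391), so for 6 of 20 clock genes against 73 of all 11614 (0.629%). Npas2 and Arntl also passed in all 8 fits without 1 library, whereas the call was lost in 3 of the 8 for Dbp, in 4 each for Nfil3 and Nr1d2 and in 7 for Nr1d1. The hour of dissection of each group is not given, and its part in these values was not tested.

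**Figure D1:**
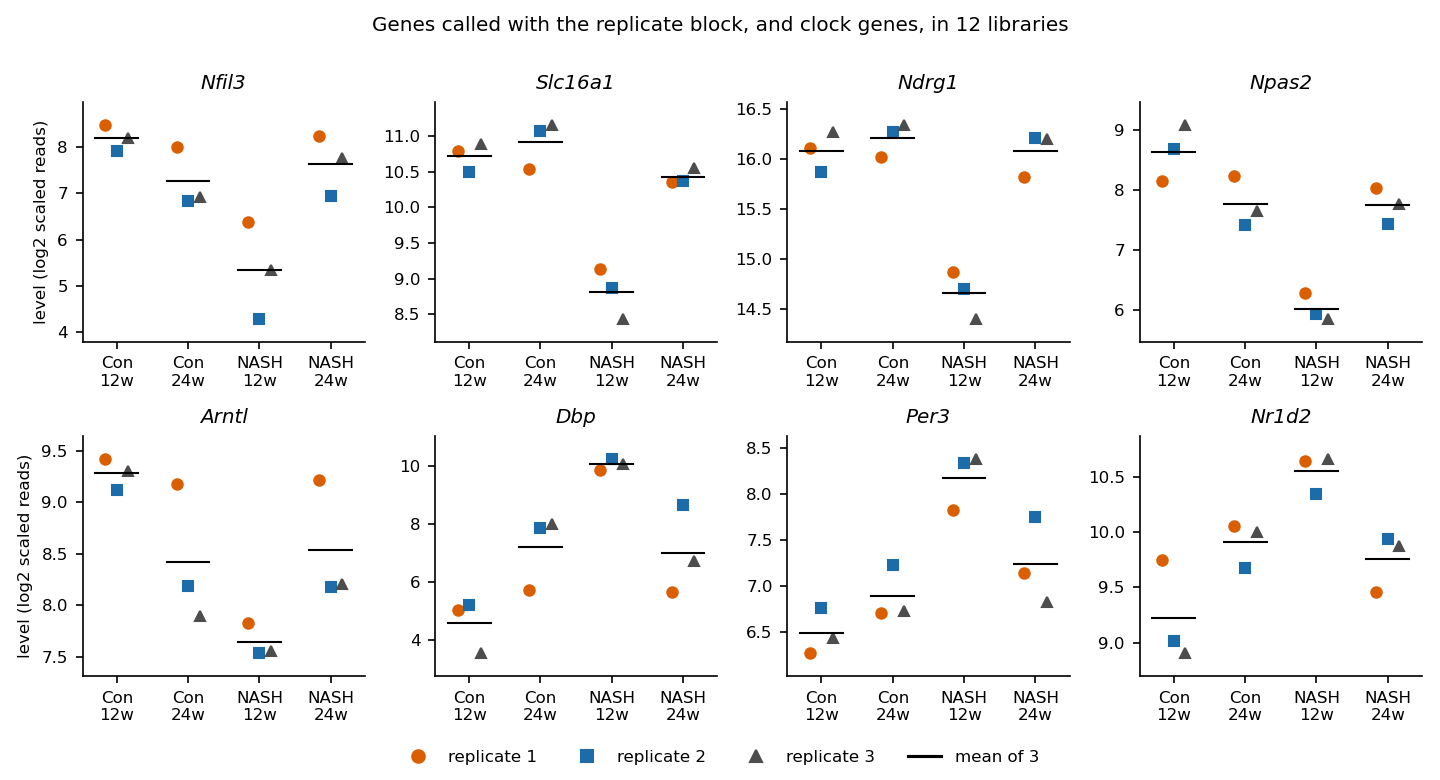
Level (log2 scaled reads, vertical axes, each panel on its own scale) of 8 genes in the 12 libraries by group, with 1 symbol per replicate number and a bar at the mean of 3. Nfil3, Slc16a1, Ndrg1, Npas2 and Arntl are lowest and Dbp, Per3 and Nr1d2 highest in the NASH libraries at 12 weeks, on average.

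The NASH differences with time were wider in pairs 2 and 3 than in pair 1. The spread of the 24 minus 12 week difference over 11614 genes (SD) was 0.306 in pair 1, 0.508 in pair 2 and 0.591 in pair 3, and 92, 551 and 673 genes passed 1 on the log2 scale. In control pairs 1, 2 and 3 the SD was 0.449, 0.527 and 0.479. Pair 1 holds the deepest NASH libraries (12400000 and 12300000 reads), and the part of depth in this spread was not tested. Over genes, which are not independent, the differences of pairs 2 and 3 correlated at 0.37, those of pair 1 with them at 0.07 and -0.01. In the fit of the 8 libraries numbered 2 and 3, 541 genes changed between the NASH times (4.66%), 292 higher (2.51%) and 249 lower (2.14%). This fit rests on 2 against 2 NASH libraries, and without 1 of its 8 libraries it called 172 to 526 genes: 172 on leaving out NASH 12-week replicate 3 and 425 on leaving out replicate 2 of that group, and of the 24-week NASH group 181 on leaving out replicate 3 and 235 on leaving out replicate 2. A set of 109 genes passed in all 8 of these fits. Genes named below from replicates 2 and 3 belong to it unless a library is given that ends the call, and adjusted p-values in parentheses are from this limma fit. A difference over all pairs is the mean of the 3 pairs, which need not share 1 sign.

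**Figure D2:**
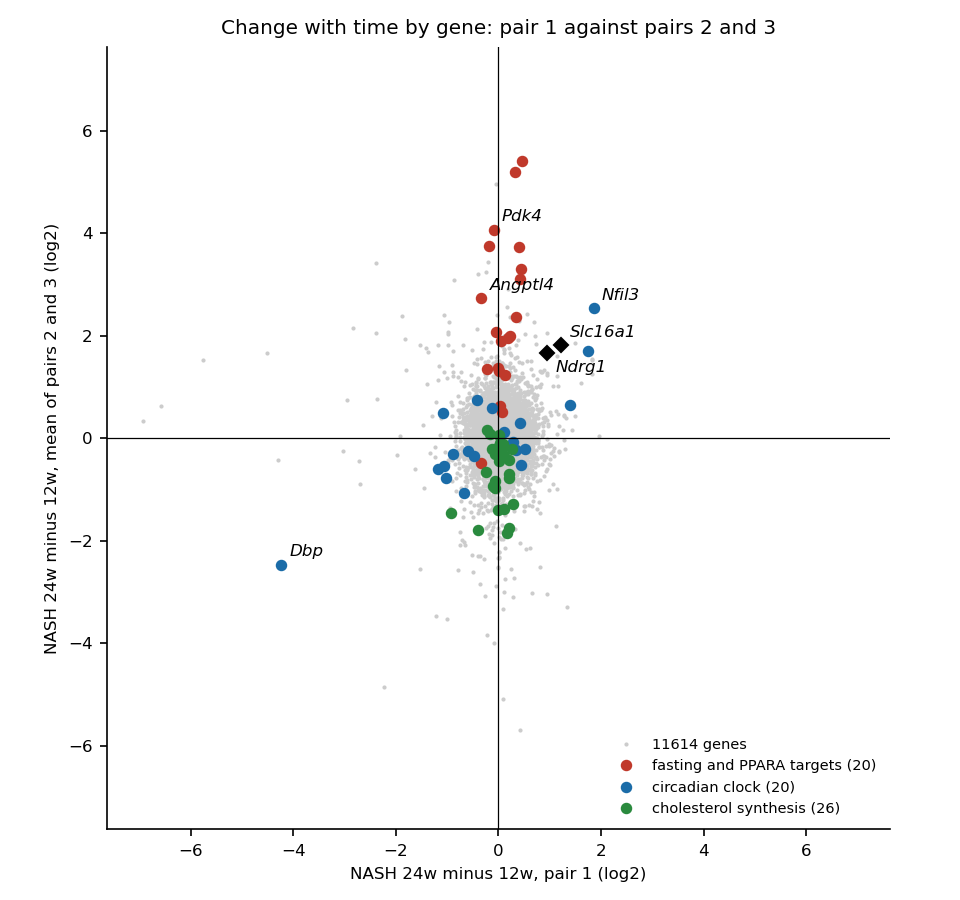
Difference between NASH libraries at 24 and 12 weeks (log2) for 11614 genes, in pair 1 (horizontal) and as the mean of pairs 2 and 3 (vertical), with 3 gene lists coloured and 2 further called genes as diamonds. PPARA targets such as Angptl4 and Pdk4 lie high near 0 on the horizontal axis, cholesterol genes low near 0, and Nfil3, Slc16a1, Ndrg1 and Dbp away from 0 on both.

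Genes of the fasting and PPARA program rose in most members in replicates 2 and 3, and in replicate 1 the pair values lay near 0. Of 20 measured members 18 rose and 0 fell in replicates 2 and 3 (13 to 18 without 1 of the 8 libraries, against 2.51% of all genes higher), and 0 passed over all 3 pairs, with or without the block. Replicate 1 has 1 library per time, so its difference from replicates 2 and 3 is given as values only. The median change was 0.06 in pair 1, 2.23 in pair 2 and 2.21 in pair 3, against 0.03, 0.09 and -0.06 for all genes. The 2 members that did not pass were Cpt1a, the carnitine transferase that lets fatty acids into mitochondria (0.50, 0.0829), and Cyp4a12a, an androgen-driven fatty acid hydroxylase (-0.48, 0.47).

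Pdk4, the kinase that closes pyruvate dehydrogenase and spares glucose, read 8.90, 7.84 and 7.38 at 12 weeks and 8.81, 11.05 and 12.31 at 24 weeks in replicates 1, 2 and 3. Replicates 2 and 3 moved from the lowest to the highest values of the NASH groups, and replicate 1 stayed between them. The rise in replicates 2 and 3 was 4.07 (SE 0.32, 16.8-fold, limma adjusted p = 0.00021). Angptl4, a secreted inhibitor of lipoprotein lipase, went from 8.10, 9.08 and 9.18 to 7.76, 11.50 and 12.22 and rose by 2.73 (0.00021). For both, 24-week replicate 1 lay below its own 12-week value.

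Acot1 and Acot2 are acyl-CoA thioesterases, which free fatty acids from coenzyme A, and as near-identical genes they may share reads. Acot2, the mitochondrial form, read 8.76, 8.50 and 8.43 and then 9.10, 10.80 and 10.83, a rise of 2.35 (9.9e-05), and Acot1, the cytosolic form, rose by 3.10 (0.00101). Among the fatty acid omega-hydroxylases, equally similar in sequence, Cyp4a10 rose by 3.30 (0.00321) and Cyp4a31 by 1.95 (0.00106). Cyp4a14, at 13.11, 8.50 and 9.14 and then 13.43, 13.59 and 14.43, rose by 5.19 (0.019), a call lost without any 1 of the 4 NASH libraries. Vnn1, a pantetheinase, rose by 1.90 (0.00021). Fabp1, the fatty acid binding protein whose promoter is printed above, read 7.41, 3.29 and 5.41 and then 7.81, 8.14 and 8.01, a rise of 3.73 (0.00715). Plin2, which coats lipid droplets, read 10.64, 10.74 and 10.83 and then 10.65, 11.85 and 12.34, a rise of 1.31 (0.00304), and Pex11a, which divides peroxisomes, rose by 1.35 (0.00446).

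Members of the same list rose with time in control replicates 2 and 3, 17 of 20 (2.33% of all genes; 6.5% in both directions). Pdk4 rose there by 4.31 and Angptl4 by 3.14, beside NASH values of 4.07 and 2.73. The difference of changes passed for 0 of 20 members; for Pdk4 it was -0.24 (SE 0.45), an error that leaves its sign unresolved. In control replicate 1 Pdk4 differed by 1.91 and Angptl4 by 1.07, against -0.10 and -0.34 in NASH replicate 1.

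**Figure D3:**
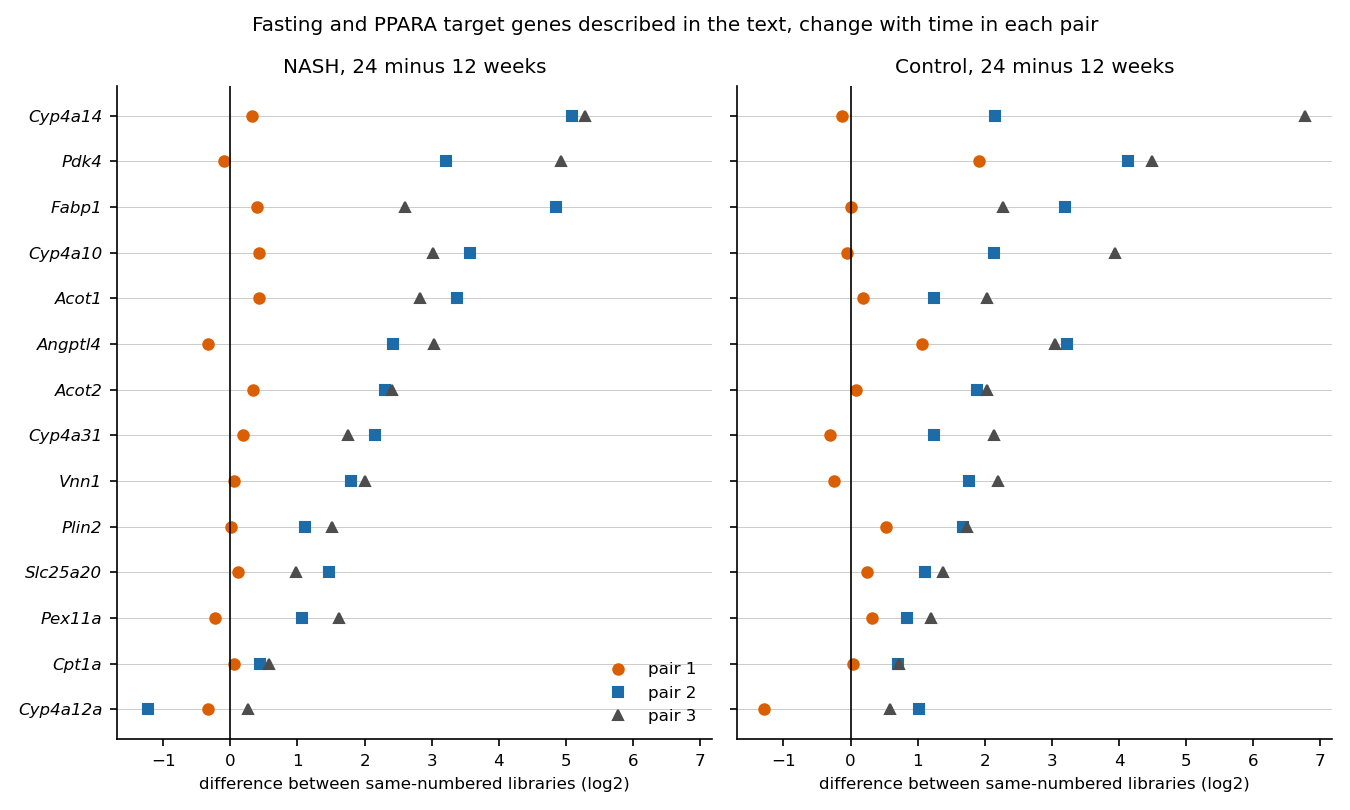
Difference between libraries of the same number at 24 and 12 weeks (log2, horizontal) for 14 of the 20 measured fasting and PPARA genes, those described in the text, in NASH (left) and control libraries (right), with 1 symbol per pair. In NASH, pair 1 lies between -0.34 (Cyp4a12a) and 0.43 (Cyp4a10), while pairs 2 and 3 reach 5.09 and 5.29 for Cyp4a14.

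Part of the genes of mitochondrial and peroxisomal fatty acid oxidation rose. Of 24 members 11 rose and 0 fell in replicates 2 and 3 (7 to 11 without 1 library, against 2.51% of all genes higher), 21 of 24 had a difference above 0 over all pairs (54% of all genes), and 0 passed over all pairs. Eci1, an isomerase for unsaturated acyl chains, read 10.41, 10.26 and 10.21 and then 10.39, 11.56 and 11.63, a rise of 1.36 (0.000336). Acaa2, the last thiolase of the mitochondrial cycle, rose by 1.21 (0.00109), Cpt2 by 0.90 (0.0044) and Slc25a20, the carnitine-acylcarnitine carrier, by 1.22 (0.00347). In controls 16 of the 24 rose (2.33% of all genes), and the difference of changes passed for 0 of 24. Outside this list, Acsl1, which activates long-chain fatty acids, and Hacl1, of peroxisomal alpha-oxidation, rose in NASH replicates 2 and 3. Acsl1 read 12.98, 11.45 and 11.22 and then 13.22, 12.84 and 13.07 in NASH (a rise of 1.62, 0.00021) and differed by 0.22 in controls (difference 1.40, 0.0114, not called with the GC and length trend removed at 0.0522 or without the mean-variance trend at 0.111). For Hacl1 the NASH rise was 1.67 (0.000336) and the difference 1.34 (0.0247, lost in 6 of the 8 fits without 1 library).

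Handling of stored and circulating lipid was mixed. Of 22 members of the lipid droplet and uptake list, 6 rose and 2 fell in replicates 2 and 3 (4 to 6 and 1 to 2 without 1 library, against 2.51% and 2.14% of all genes). Lipe, hormone-sensitive lipase, rose by 1.70 (0.00205), and Slc27a1, a fatty acid transporter, by 1.497 (0.000341). Lpl, lipoprotein lipase, fell from 14.39 and 14.58 in replicates 2 and 3 at 12 weeks to 13.16 and 13.17 at 24 weeks (a difference of -1.33, 0.000377); replicate 1 read 12.66 and 12.40. Mfsd2a, a transporter of lysophospholipid-bound fatty acids, read 7.87, 8.47 and 10.39 at 12 weeks and 6.87, 5.44 and 6.37 at 24 weeks, lower at 24 weeks in all pairs without overlap, and fell by 3.53 in replicates 2 and 3 (0.00644). In control replicates 2 and 3, 11 of the 22 rose and 2 fell (2.33% and 4.17% of all genes), and the difference of changes passed for 0. The list median in replicates 2 and 3 was 0.26 in NASH and 0.91 in controls, against 0.01 and -0.14 for all genes. With the GC and length trend removed, the difference of changes was -0.63 for Lipe, -0.03 for Slc27a1 and -0.85 for Lpl (limma adjusted p of 0.42, 0.968 and 0.0569). Adipocyte markers bear on this list, and their NASH levels follow. Their summed level (12 measured genes) was 13.37 to 14.67 at 12 weeks and 12.64 to 13.52 at 24 weeks, Lpl was the 1 member called, and Adipoq, which defines the cell type, ranged from 3.77 to 7.93 and from 2.17 to 7.54. Their part in the lipid genes was not tested. In tissue RNA, fewer cells of a type and less RNA per cell cannot be told apart.

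Of the sterol synthesis genes, 8 fell in replicates 2 and 3 and the others did not pass. Of 26 measured genes of cholesterol synthesis and its control, 24 had a negative difference over all pairs (5343 of all 11614 genes), with 8 lower and 0 higher calls in replicates 2 and 3 (3 to 9 lower without 1 library, against 2.14% of all genes lower), and 0 passed over all pairs. The list median was 0.01, -0.41 and -0.70 in pairs 1, 2 and 3.

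Insig1, which holds the SREBF proteins in the endoplasmic reticulum and is itself their target, read 9.30, 9.81 and 10.02 at 12 weeks and 9.30, 8.54 and 8.50 at 24 weeks. Replicate 1 read the same at both times, and replicates 2 and 3 fell by 1.40 (SE 0.16, 0.00136). Idi1, which makes the reactive isoprenoid unit, read 9.44, 10.99 and 11.51 and then 9.65, 9.44 and 9.55, and fell by 1.76 (0.00217). Cyp51, lanosterol demethylase, fell by 1.85 (0.0044). In controls 14 of the 26 fell (4.17% of all genes), with Idi1 at -1.93 and Insig1 at -1.25, and the difference of changes passed for 0 of 26.

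Oxidative phosphorylation and mitochondrial ribosome genes were mostly slightly lower at 24 weeks. Of 75 oxidative phosphorylation genes, 71 had a negative difference over all pairs, with a median of -0.14 (quantile normalization -0.14, median-of-ratios scaling -0.15). In 19 of 75 all 24-week libraries lay below all 12-week ones, against 4.37% of all genes. The pair medians were -0.02, -0.14 and -0.32. Cycs, cytochrome c, was the 1 member called, with a difference of -0.57 in replicates 2 and 3 (0.0283), lost without any 1 of the 4 NASH libraries. Of 70 mitochondrial ribosomal protein genes, 59 had a negative difference, with a median of -0.13 (-0.08, -0.16 and -0.18 by pair), 18 lay below without overlap and 0 passed.

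Retinoid and cytochrome P450 genes rose in part. Aldh1a1, a retinal dehydrogenase, read 8.97, 6.97 and 7.66 and then 9.19, 9.73 and 9.63, and rose by 2.37 in replicates 2 and 3 (0.000892). Its close copy Aldh1a7, with which it may share reads, rose by 2.37 (0.00021), and Rdh16, a retinol dehydrogenase, by 1.02 (0.00106). Of 20 retinoid genes 4 rose (3 to 4 without 1 library, against 2.51% of all genes) and 1, Ttr, fell. Ttr, the carrier of thyroid hormone and of the retinol-binding protein, read 10.37, 12.60 and 12.40 at 12 weeks and 10.67, 10.14 and 9.40 at 24 weeks. Replicates 2 and 3 fell by 2.73 (SE 0.21, 6.64-fold, 0.00021) and replicate 1 differed by 0.29. The difference from the control change was -1.67 (0.0398), a call lost in 7 of the 8 fits without 1 library. Of the 20 retinoid genes, 2 rose and 3 fell in control replicates 2 and 3 (2.33% and 4.17% of all genes), and Ttr was the 1 whose difference of changes passed. With the GC and length trend removed, that difference was 0.04 for Aldh1a1, -0.15 for Aldh1a7 and 0.49 for Rdh16 (limma adjusted p of 0.971, 0.853 and 0.199). Ttr is also a hepatocyte marker, and of the 12 genes of that list Ttr was the 1 called in replicates 2 and 3, where 8 lay below 0 and the median was -0.26 (pair medians 0.46, 0.34 and -0.44). Its part in the Ttr values was not tested. Of 29 cytochrome P450 genes 8 rose and 1 fell in control replicates 2 and 3 (2.33% and 4.17% of all genes), and the difference of changes passed for 0. In NASH 8 of the 29 rose, among them Cyp2d12 (1.73, 0.00249), and 2 fell. These calls include Cyp4a10, Cyp4a14 and Cyp4a31 of the fasting list and Cyp51 of the sterol list. Without 1 library the counts were 4 to 8 higher and 1 to 3 lower, against 2.51% and 2.14% of all genes.

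**Figure D4:**
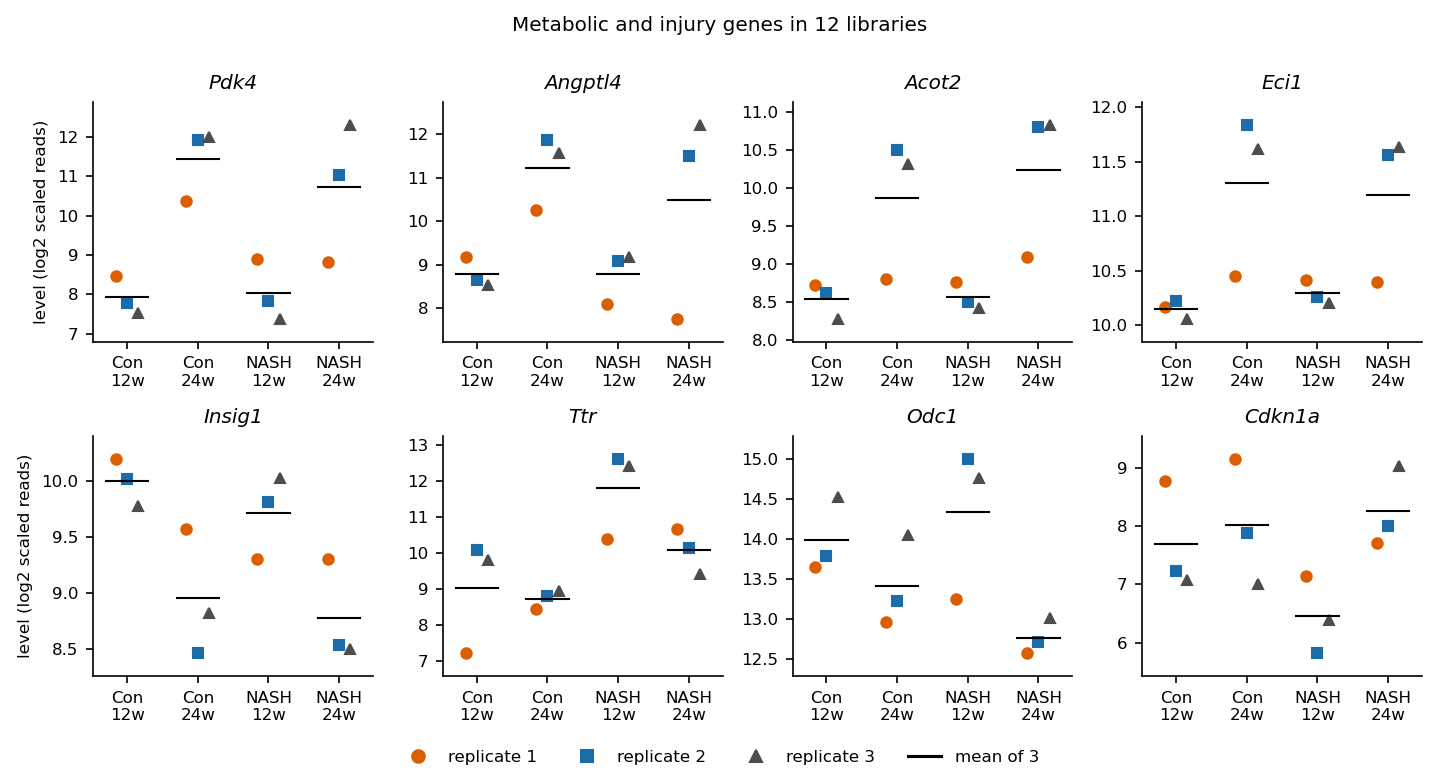
Level (log2 scaled reads, vertical axes, each panel on its own scale) of 8 genes in the 12 libraries by group, with 1 symbol per replicate number and a bar at the mean of 3. In NASH, Pdk4, Angptl4, Acot2 and Eci1 rise and Insig1 and Ttr fall from 12 to 24 weeks in replicates 2 and 3, with replicate 1 near its 12-week level.

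Male-biased kidney genes fell in part, and organic ion transporters changed in both directions. Of 18 measured male-biased genes 16 had a negative difference over all pairs (5343 of all 11614 genes), 7 fell and 0 rose in replicates 2 and 3 (4 to 6 lower without 1 library, against 2.14% of all genes lower), and the medians were -0.14, -0.77 and -0.71 in pairs 1, 2 and 3. Odc1, ornithine decarboxylase of polyamine synthesis, which androgen drives in mouse kidney, read 13.24, 15.001 and 14.77 at 12 weeks and 12.57, 12.70 and 13.01 at 24 weeks. It was lower without overlap, most in replicates 2 and 3, where it fell by 2.03 (SE 0.28, 0.00354; limma adjusted p = 0.0761 over all pairs with the block). Acsm3, a medium-chain acyl-CoA synthetase, fell by 2.09 (0.0048).

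Slc22a7 is an organic anion transporter of the female-biased list. It read 12.02, 10.58 and 12.41 at 12 weeks and 11.92, 8.04 and 6.96 at 24 weeks, and fell by 3.99 in replicates 2 and 3 (0.00376) with replicate 1 nearly level. The related Slc22a30 fell by 1.02 (0.00217) and Slc22a28 fell by 1.004 (0.00249). Both are counted among the transporters and among the male-biased genes. Of the efflux pumps, Abcc4 rose by 1.66 (0.000536), Abcb1b by 1.58 (0.00404) and Abcb1a by 1.39 (0.00568). Other large changes in replicates 2 and 3 were those of Akr1c14, an aldo-keto reductase of steroid metabolism (-2.29, 0.00151), Mpv17l, a mitochondrial and peroxisomal membrane protein (-1.89, 0.00217), and Acnat2, which conjugates acyl chains to amino acids (1.998, 0.000536). The repressor gene Bcl6 fell by 2.88 (0.00933, lost without 12-week replicate 3 or 24-week replicate 2 of NASH) and Rnf24 fell by 2.57 (0.0192, lost without either 24-week NASH replicate). Ppic fell by 1.76 (0.0371), lost without any 1 of 5 libraries (NASH 12-week replicate 3, both at 24 weeks, and both control libraries at 24 weeks). In all, 5 of 32 transporters rose and 6 fell in NASH replicates 2 and 3 (3 to 5 and 3 to 6 without 1 library, against 2.51% and 2.14% of all genes), and 0 rose and 4 fell in controls. Of 11 female-biased genes 1 rose and 1 fell (0 to 1 and 1 to 3 without 1 library).

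Part of the injury and complement genes changed, and few of the immune genes. Over all genes, 2.51% were called higher and 2.14% lower in replicates 2 and 3. Of 26 injury and repair genes 4 rose and 0 fell in replicates 2 and 3 (1 to 5 without 1 library). Cdkn1a, the p21 inhibitor of the cell cycle, read 7.15, 5.83 and 6.38 at 12 weeks and 7.72, 8.01 and 9.04 at 24 weeks, without overlap, and rose by 2.42 (SE 0.37, 0.006). Hmox1, heme oxygenase, rose by 1.02 (0.0089), lost without replicate 3 of either NASH time. Havcr1, the injury marker KIM-1, read 4.68, 5.83 and 7.16 and then 4.63, 4.90 and 7.91, a difference of -0.08 with wide overlap (95% interval -2.22 to 2.06).

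Of 16 complement genes C3, the central component, rose by 1.81 (0.000443), C2 by 0.91 (0.00479) and C4b by 1.25 (0.00727, lost without NASH 24-week replicate 3), while Cd55, which protects cells from complement, fell by 1.20 (0.00293). These 3 higher calls and 1 lower call of 16 stand against 2.51% and 2.14% of all genes. In control replicates 2 and 3, 3 of the 16 rose and 0 fell (2.33% and 4.17% of all genes). The difference of changes passed for Cd55 alone (-1.51, 0.0209, lost in 7 of the 8 fits without 1 library). With the GC and length trend removed, it was 0.06 for C3, 0.45 for C2 and 0.19 for C4b (limma adjusted p of 0.948, 0.391 and 0.825). Macrophage markers had a mean difference between the NASH times above 0 in 15 of 16 members (54% of all genes), with pair medians of -0.39, 1.38 and 0.28. In 0 of the 16 were all 3 pairs above 0. Of them Ptprc, the leukocyte antigen CD45, rose in replicates 2 and 3 by 1.01 (0.0116), lost without either 24-week NASH replicate. Summed macrophage marker levels were 11.28 to 12.35 at 12 weeks and 12.0 to 12.79 at 24 weeks, highest in 24-week replicate 2, so the groups overlapped; their part in the complement genes was not tested. The 1 measured T and NK cell marker differed by -0.89 and the 1 B and plasma cell marker by -0.25, and 8 erythroid genes had a median of -0.14. Of 28 interferon response genes 0 passed, with a median of -0.18.

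Matrix genes showed no change that passed. Of 41 extracellular matrix and fibroblast activation genes 0 passed in any of these fits, 24 lay above 0 and the median was 0.06 (-0.11, 0.43 and -0.28 by pair). Col1a1, a chain of type I collagen, read 9.42, 8.33 and 8.94 at 12 weeks and 9.11, 9.98 and 8.49 at 24 weeks, a difference of 0.29 (95% interval -0.57 to 1.15). Fn1, fibronectin, differed by -0.34 (-1.79 to 1.11) and Acta2, smooth muscle actin, by 0.07 (-0.88 to 1.02). Summed fibroblast markers (7 genes) were 10.4 to 11.71 at 12 weeks and 10.68 to 12.51 at 24 weeks, again highest in 24-week replicate 2.

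Few transport genes of the nephron segments changed, in both directions. Slc12a3, the thiazide-sensitive sodium-chloride cotransporter of the distal convoluted tubule, read 13.33, 12.01 and 12.01 and then 13.91, 13.26 and 12.84, higher in all pairs; it rose by 1.04 in replicates 2 and 3 (0.00292), and the difference from controls was 1.16 (0.0337), lost in 7 of the 8 fits without 1 library, under median-of-ratios scaling and after removing the GC trend. Of 30 loop and distal tubule genes 2 rose and 0 fell in replicates 2 and 3 (1 to 2 and 0 to 3 without 1 library). Of 32 proximal tubule transport genes 2 rose and 4 fell (0 to 3 and 0 to 4), and leaving out NASH 12-week replicate 3 or either 24-week NASH replicate left 1 call in all. Both lists are read against 2.51% higher and 2.14% lower of all genes. Slc34a1 differed by -0.13 (95% interval -0.53 to 0.27).

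**Figure D5:**
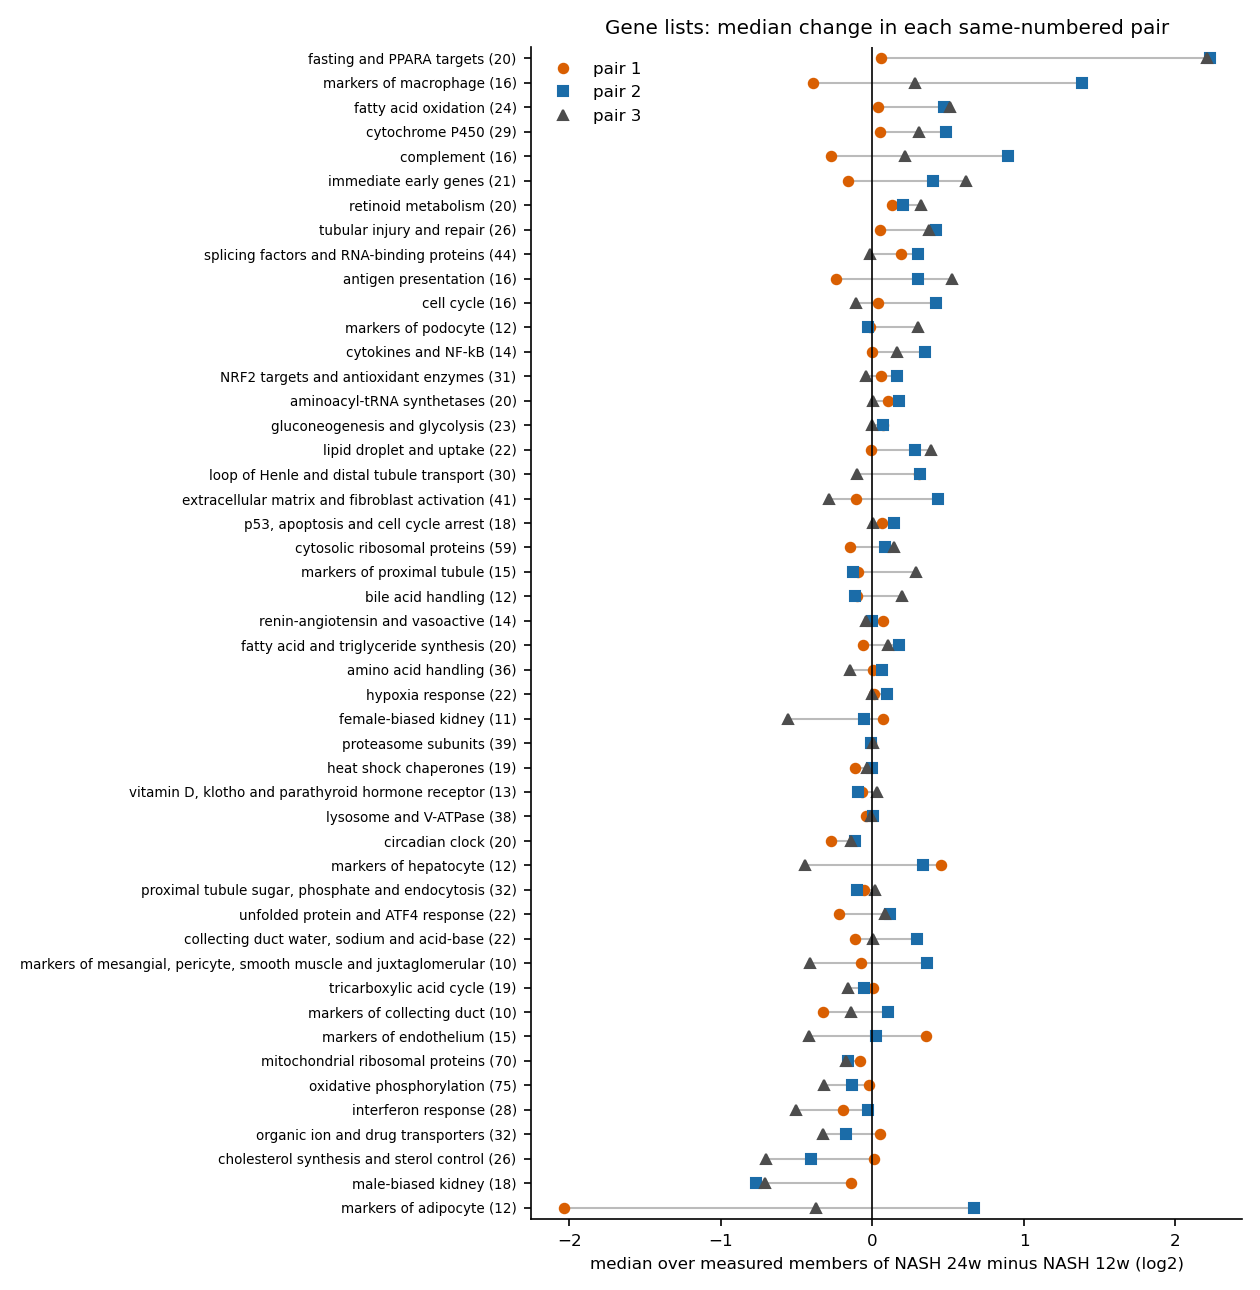
Median difference between NASH libraries at 24 and 12 weeks (log2, horizontal) over the measured members of each list of at least 10 genes (number in parentheses), with 1 symbol per pair and a grey line over their range. Fasting and PPARA targets stand at 2.23 and 2.21 in pairs 2 and 3 and at 0.06 in pair 1, and adipocyte markers have the widest spread between pairs, from -2.04 to 0.67.

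Set against the controls, the NASH change with time in replicates 2 and 3 shared 167 called genes in the same direction, 30.9% of the 541 NASH calls and 22.1% of the 755 control calls (6.5% of genes), and 9 in opposite directions; the 2 comparisons share no library. Under the deposited scaling the control change had a median of -0.14 over all genes and 271 higher and 484 lower calls, and under quantile normalization 375 higher and 267 lower, so control changes are read against that shift. The difference of the changes, which uses both sets of libraries, passed for 73 genes, 50 with a more positive change in NASH (0.431%) and 23 with a more negative one (0.198%). Median-of-ratios scaling gave 27 and 28, leaving out 1 of the 8 libraries 20 to 52 in all, and a fit without the mean-variance trend 3. Of the 36 genes of the amino acid handling list, 1 passed with a more positive change and 0 with a more negative one. Kynu, Bhmt and Ddc, chosen after their values were seen, are given here. Kynu, kynureninase of tryptophan breakdown, read 8.93, 3.97 and 4.35 and then 8.69, 7.38 and 7.43 in NASH, a rise of 3.24 in replicates 2 and 3 (0.00168) against -1.08 in controls (difference 4.32, 0.0114). Bhmt, which remethylates homocysteine, rose by 2.25 (0.00888, lost without either 24-week NASH replicate) against -1.30 (difference 3.55, 0.0211, lost in 5 of the 8 fits). Ddc, which makes dopamine in the tubule, rose by 1.05 (0.00265) against -0.38 (difference 1.42, 0.0147, lost without control 24-week replicate 2).

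In 3 further genes the larger change lay in the controls. Ppard, a lipid-sensing nuclear receptor, read 8.93, 7.55 and 7.69 and then 9.47, 7.96 and 8.28 in NASH, a difference of 0.50 in replicates 2 and 3 (0.19), and fell by 2.04 in controls (0.000358; difference 2.54, 0.00843). Pck1, the gluconeogenic carboxykinase, read 16.68, 16.39 and 15.79 and then 16.58, 17.45 and 16.49 in NASH (0.88, 0.122), and rose by 3.12 in controls (0.000309; difference -2.24, 0.0398, lost in 7 of the 8 fits). Slc2a5, the fructose transporter, read 10.85, 10.80 and 10.69 and then 10.99, 10.36 and 10.05 in NASH (-0.54 in replicates 2 and 3, 0.0486, lost without any 1 of the 8 libraries), and rose by 1.83 in controls (9.31e-05; difference -2.37, 0.00163). With the block over all pairs the difference of changes for genes next after Nfil3 did not pass (limma adjusted p of 0.0739 for Itga6, 0.0739 for Prom1, 0.0739 for Nav2, 0.0739 for Gpd2, 0.0845 for G0s2 and 0.0891 for Nudt19). It was 1.60 for Itga6, a laminin-binding integrin, 1.49 for Prom1, a membrane protein of epithelial progenitors, 1.47 for Nav2, -0.98 for Gpd2, the mitochondrial glycerol phosphate dehydrogenase, -1.96 for G0s2, an inhibitor of triglyceride lipase, and -1.30 for Nudt19, a kidney coenzyme A hydrolase. For Pck1 and Slc2a5 the NASH libraries at 12 weeks lay above the 12-week controls, and for Ppard below them.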

How the data were processed

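RNA of mouse kidney cortex was sequenced in 12 libraries, 3 in each of 4 groups. BWA, limma and mm10 are named in the submitters' processing notes, without a version or a role. The authors deposited normalized log2 values per gene (named so in the file headers), which were used unchanged. Depth was estimated from their steps, of which 85.4% to 91.1% of low values were whole multiples within 0.01 steps. In its highest library each gene has 100 scaled reads or more; a filter by the authors is not given in the sources used here, and other genes, such as Lcn2, are not analysed here. The strand of counting is not given in the sources used here. The 16 symbols that read as dates were restored. No pseudocount or further filter was used.

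In R 4.3.3, limma 3.58.1 fitted 4 group means to the 12 libraries (8 residual degrees of freedom, 6 with the block), with a mean-variance trend, 2-sided tests and Benjamini-Hochberg adjustment over 11614 genes; called genes have an adjusted p below 0.05. A change is a log2 difference, given with its standard error (SE). The replicate numbers in the labels were taken to pair libraries because every same-numbered pair correlated above 0.1 (median 0.519 over 18 pairs); replicates 2 with 3 also did (0.187 to 0.637), and 1 with 2 or 3 did not (-0.702 to -0.27). The fit of replicates 2 and 3 was a listed alternative; its own alternatives were added after seeing the data. A test of replicates 2 and 3 against 1, also added then, is not used, since replicate 1 has 1 library per time and the split came from the same values. The rule names up to 12 genes per direction (15 with the block, 6 for the difference) by size of change, from called genes whose level exceeds the median and whose groups do not overlap (with the block, whose 3 pairs have 1 sign), and where fewer than 5 pass the 5 with the smallest p. Extending it to replicates 2 and 3 (12 per direction) was decided after the data were seen. Col1a1, Fn1, Acta2, Havcr1, Plin2, Cpt1a, Slc34a1, Xist, Dbp, Arntl, Npas2, Per3, Nr1d1, Pck1, Ttr and Ppard are always given, as are 2 to 4 members with the smallest p of lists described; other genes were chosen after their values were seen. Some genes that the rule takes up are not reported here. The members and the 56 gene lists (1095 of 1211 listed genes measured) were chosen with earlier results of these data known. Among marker lists, neutrophil and adrenal cortex markers had 0 measured genes, and T and NK cell and B and plasma cell markers 1 each. The fit of the NASH change in 12 libraries, without and with the block, was tested on simulated data. The fit of replicates 2 and 3 and the difference of changes were not. Summaries and plots used Python 3.11.15, pandas 2.3.3 and matplotlib 3.10.9.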

Additional observations from a re-analysis of the deposited data

Results flagged for a closer look

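The change with time differed between NASH and control in 1 gene with the replicate block, Nfil3 (difference 3.243, limma adjusted p = 0.034), a call lost in 7 of the 12 fits that leave out 1 library (limma adjusted p up to 0.222). In replicates 2 and 3 the change differed in 73 genes, 20 to 52 without 1 of the 8 libraries and 3 without the mean-variance trend.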

How the results depend on the processing

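The number of genes called between the NASH times was 0 without the block, and stayed at 0 under quantile normalization, median-of-ratios scaling, 16 added before the log, both filters, no trend and the 6 NASH libraries alone. With the replicate block it was 3, with the block and quantile normalization 4, with the block and median-of-ratios scaling or GC and length trend removal 1 each (Nfil3), with Xist as a covariate 4, and in replicates 2 and 3 alone 541 (596 with the block). For the controls these settings gave 20 with the block, 32, 4 and 3 with the block and those corrections, 3 with Xist, and 755 (800 with the block) in replicates 2 and 3. For the difference they gave 1 with the block, 4, 1 and 1, and 73 (91 with the block) in replicates 2 and 3. Leaving out 1 library gave 0 to 4 calls between the NASH times (0 to 170 with the block), 0 to 3 for the controls (0 to 434) and 0 for the difference (0 to 29). The calls in replicates 2 and 3 numbered 424 to 596 under the other settings, 176 without the mean-variance trend and 172 to 526 without 1 library; an arm left with 1 library is assumed to vary like the others. The GC and length correction kept 467 of the 541. Of single genes, replicates 2 and 3 alone gave the opposite sign to all pairs for Nr1d1 (0.4945), Adipoq (1.515) and Ddx3y (-0.03088). Without 1 library, with or without the block, the sign of the NASH difference also turned for 18 genes, none of them called over all pairs, whose values ranged from -0.2488 to 0.04005 for Slc34a1, from -1.896 to 2.768 for Xist, from -1.815 to 2.189 for Ddx3y, from -0.019 to 1.086 for Per1, from -0.2852 to 0.3492 for Nr1d1, from -2.678 to 1.765 for Cyp4a12a, from -2.636 to 1.568 for Adipoq, from -3.899 to 0.1995 for Acsm3, from -2.212 to 0.4576 for Slc22a30, from -1.805 to 0.09051 for Slc22a28, from -1.126 to 0.5568 for Havcr1, from -0.1679 to 0.6423 for Col1a1, from -0.8267 to 0.2487 for Fn1, from -0.2959 to 0.6475 for Acta2, from -0.2006 to 1.056 for Itga6, from -0.09662 to 1.249 for Prom1, from -0.5298 to 0.5999 for G0s2 and from -1.199 to 0.06162 for Nudt19.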
